A study of Mus musculus with 30 samples.

Results

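The repressors of the Per-Cry loop are the negative arm of the circadian clock, and 7 genes were followed here: the period genes Per1, Per2 and Per3, the cryptochromes Cry1 and Cry2, and the basic helix-loop-helix repressors Bhlhe40 (Dec1) and Bhlhe41 (Dec2). They were chosen by symbol, and each was represented by 1 of the 28815 probe sets of the array, which cover 18781 genes with a probe set of 1 symbol. All 7 probe sets had a mean above the median level of 5.02 over all values. All 7 also passed the filter for dim probe sets, which asks for values above that level on part of the arrays only. Single groups can lie lower: Bhlhe41 read 3.73 to 4.95 in LIV, and Bhlhe40 and Bhlhe41 lay below that level on some fasted WAT arrays. The arrays (Affymetrix Mouse Gene 1.1 ST, which read a transcript with several short probes along its exons) were hybridized with total RNA of male wild-type C57Bl/6 mice (C57Bl/6 J in the study's methods) of 10 to 12 weeks kept on chow in a light-dark cycle. One group of 5 mice was left without food for 24 h from 9 a.m., the beginning of the light phase (fasted), and the other group of 5 had free access to chow (fed). From both, epididymal white adipose tissue (WAT), the fat pad beside the testis, liver (LIV) and skeletal muscle (SM) were profiled, which gave 6 groups of 5 arrays.

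In the core loop, the activators Clock (or Npas2) and Arntl (Bmal1) bind E-boxes in the promoters of the Per and Cry genes, and the PER and CRY proteins later return to the nucleus and silence this activation. Bhlhe40 and Bhlhe41 bind the same E-boxes and lower transcription directly. Per1 and Per2 are also known as acute targets of hormones, with glucocorticoid and cAMP signalling as textbook inducers, and in peripheral organs meal times can set the phase of the loop. Levels of these transcripts rise and fall over the day. Both diets were sampled at 1 time of day, so a shift in the phase of a rhythm and a change in its mean level cannot be told apart here.

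The DNA before the start sites is shown because several of these inputs act through short motifs there. RefSeq promoters (build GRCm38.p6, 250 bases before to 50 after a transcript start) were matched for 5 of the 7 members, with 2 start sites for Per1. Both strands were searched for the E-box CACGTG, its variant CACGTT, the D-box TTATGTAA bound by PAR bZIP factors, the CRE TGACGTCA and its core TGACGT (contained in the CRE), the glucocorticoid receptor half-site AGAACA and the ROR core AGGTCA. The windows with a match are printed 5′ to 3′ on the gene's strand, with the matches in capitals and, where the match lies on the other strand, as its reverse complement (AACGTG for the E-box variant, TGACCT for the ROR core).
Per1, upstream start, chr11:69098758-69098842, + strand: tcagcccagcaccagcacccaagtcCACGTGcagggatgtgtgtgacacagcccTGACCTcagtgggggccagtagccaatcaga
Per1, downstream start, chr11:69099995-69100050, + strand: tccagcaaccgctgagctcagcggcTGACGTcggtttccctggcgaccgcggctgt
Per3, chr4:151044791-151044895, − strand: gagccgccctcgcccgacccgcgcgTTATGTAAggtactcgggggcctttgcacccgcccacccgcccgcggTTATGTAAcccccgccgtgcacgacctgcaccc
Cry1, chr10:85185084-85185158, − strand: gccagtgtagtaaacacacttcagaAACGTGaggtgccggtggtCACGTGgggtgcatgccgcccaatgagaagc
Cry2, chr2:92434205-92434260, − strand: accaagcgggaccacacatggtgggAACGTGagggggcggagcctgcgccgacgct
Bhlhe41, chr6:145865543-145865598, − strand: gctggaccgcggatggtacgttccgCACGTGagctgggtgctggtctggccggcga

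E-boxes stood in the promoters of Per1 (upstream start, first base 166 bases before the start), Cry1 (60 before) and Bhlhe41 (153 before), and 7.15% of all 32851 promoters hold one. The variant was found in Cry1 and Cry2 and is held by 4.68% of promoters. Per3 alone among the matched members held D-boxes, both on the same strand, at 205 and 158 bases before its start, and 0.938% of promoters have a D-box. At Per1 the upstream window also held a ROR core (16.3% of promoters), and the window of the downstream start held a CRE core (7.51%). No member's window held the full CRE (1.79%) or the glucocorticoid half-site (19.0%) in these letters. These matches describe the sequence, and binding was not measured.

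The data were checked before the genes were read. Arrays fed LIV 4 and fasted SM 5 correlated least with their own groups (mean Pearson r over all probe sets of 0.987 and 0.980, against 0.991 or more for the other liver and muscle arrays). On the latter, the mean of 6 lymphocyte markers was 8.42, against 3.88 to 4.13 on the other muscle arrays. Both arrays were left out, so fed LIV and fasted SM hold 4 arrays, and values with all 30 arrays are given where they change a call for a member. The mean of 6 hepatocyte markers was 12.5 to 12.7 in LIV and at most 5.49 elsewhere, that of 6 muscle fibre markers was 12.6 to 12.7 in SM, and that of 6 adipocyte markers was 11.4 to 12.2 in WAT, so each tissue carried the markers of its label. In SM the adipocyte markers ranged from 7.83 to 9.80 (fed) and from 7.87 to 8.93 (fasted), and the mean of 5 epididymis and testis markers was dim in WAT (3.50 to 3.63). In SM that mean was 4.39 on fasted SM 3 and 3.59 to 3.72 on the other arrays. Without fasted SM 3, Per2 in SM was not called (0.503, adjusted p = 0.0941, limma) and Per3 in SM was (−0.65, adjusted p = 0.0471). In WAT the muscle fibre markers had a mean of 5.06 to 5.17 on fed and 5.21 to 5.71 on fasted arrays, with 1 of 6 called (Acta1, a rise of 1.53), and of the adipocyte markers Lep fell by 1.94. Their part in the WAT results was not tested. In bulk tissue, fewer cells of a type and less RNA per cell cannot be told apart.

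Fasting did not move the repressors in 1 direction. Per1 and Per2 rose in WAT, LIV and SM, Bhlhe40 fell in all 3, and Bhlhe41 fell in WAT and SM. Cry1 was called in WAT, where it rose, and Cry2 in SM, where it rose, and Per3 was not called in any tissue. Changes were called where the adjusted p was under 0.05 (limma, Benjamini-Hochberg over all probe sets) and the difference at least 1.3-fold. Values are log2, so that a difference of 1 is 2-fold, and levels are compared only within 1 probe set. In WAT 3 members were called higher and 2 lower, where 6.93% of all probe sets were called higher and 6.23% lower. In LIV 2 were higher and 1 lower (background 3.12% and 3.43%), and in SM 3 were higher and 2 lower (6.35% and 5.52%). Called higher in all 3 tissues were 0.323% of probe sets, to which Per1 and Per2 belong, and called lower in all 3 were 0.281%, to which Bhlhe40 belongs.

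**Figure D1:**
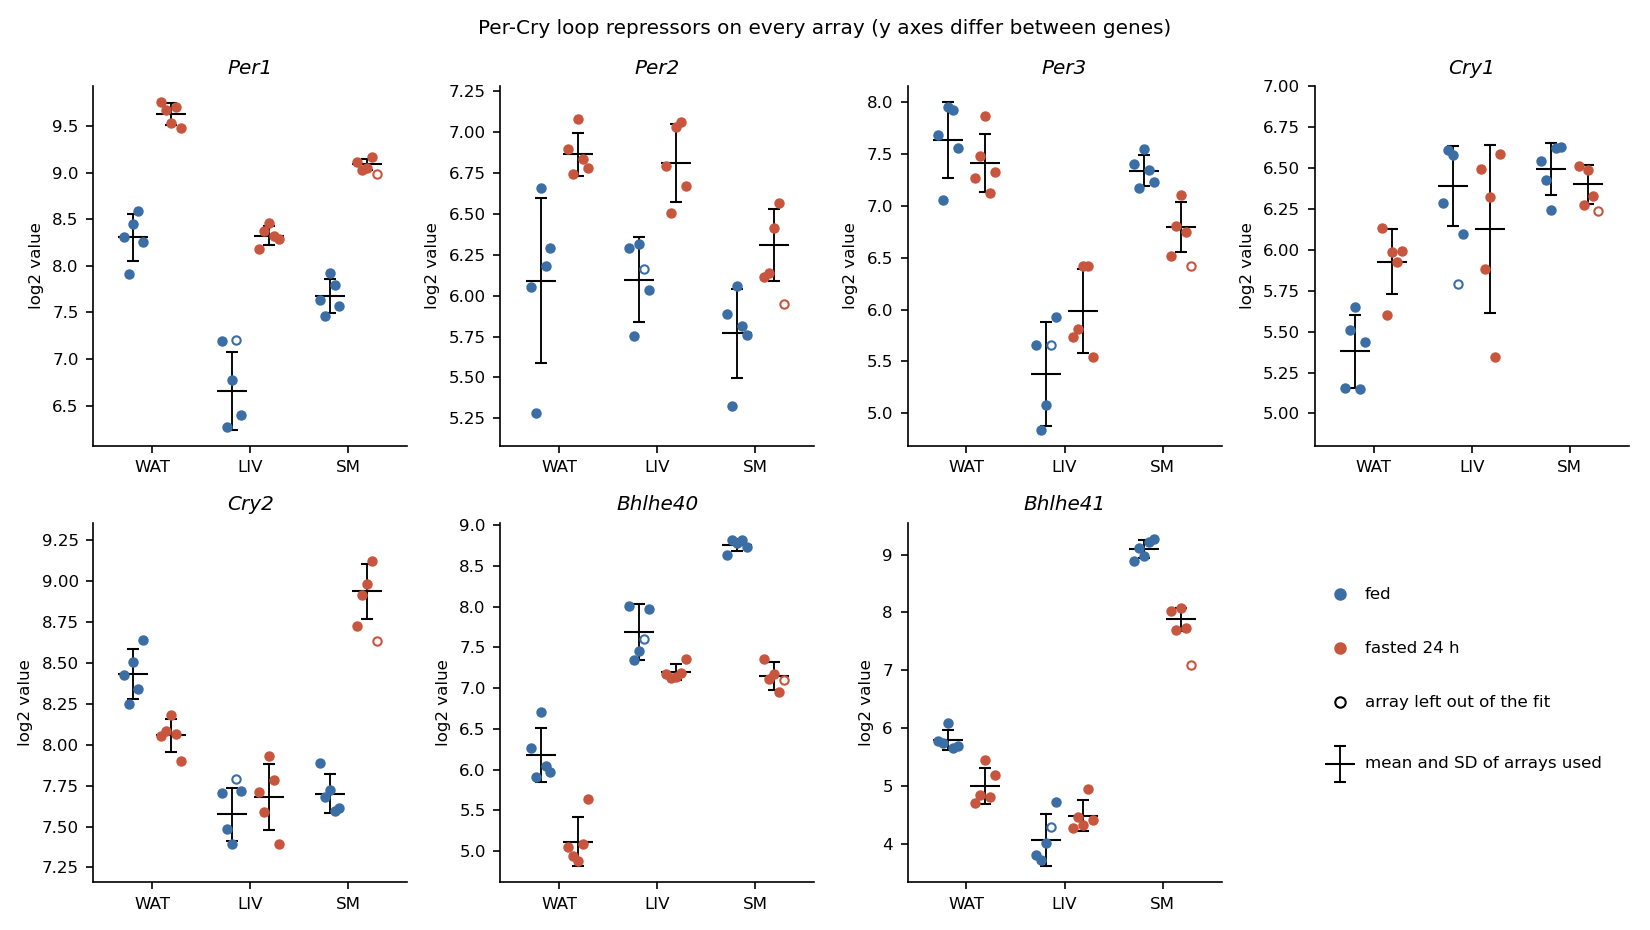
Each panel plots 1 repressor gene, with the log2 value of every array (y) by tissue (x), fed in blue and fasted in red. Bars are the mean and SD of the arrays used, and open circles are the 2 arrays left out. All fasted Per1 values lie above all fed ones in each tissue, and all fasted Bhlhe40 values in SM lie below the fed ones.

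Per1, the period gene known for its rapid response to hormones and light, rose in every tissue by more than 2-fold. In WAT the fed arrays read 8.31, 7.91, 8.45, 8.59 and 8.25, and the fasted arrays 9.75, 9.67, 9.54, 9.70 and 9.48. In LIV the fed arrays were at 7.20, 6.27, 6.78 and 6.40 and the fasted ones at 8.18, 8.38, 8.46, 8.32 and 8.29. In SM fed values of 7.63, 7.46, 7.92, 7.79 and 7.57 stood against fasted values of 9.11, 9.03, 9.05 and 9.16. In each tissue every fasted array was above every fed one, by at least 0.893 between the nearest arrays. Fed and fasted arrays did not overlap for 18% of all probe sets in WAT, 14.6% in LIV and 19.4% in SM.

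Per1 rose by 1.33 in WAT (SE 0.129, 2.51-fold, adjusted p = 8.53e-09 in limma), by 1.66 in LIV (SE 0.137, 3.17-fold, adjusted p = 1.05e-09) and by 1.41 in SM (SE 0.137, 2.66-fold, adjusted p = 8.82e-09). The change was nominally largest in LIV, where the fed level was lowest, but no difference between tissues was called. WAT minus LIV was −0.34 with a 95% confidence interval of −0.723 to 0.048 (adjusted p = 0.248). Without fed LIV 1 this difference was −0.516 and was called (adjusted p = 0.0263).

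Per2, the closest relative of Per1 and its partner in the repressor complex, rose in the same tissues by less. Fed WAT arrays read 6.05, 5.28, 6.66, 6.18 and 6.29 and fasted ones 6.89, 6.74, 7.08, 6.84 and 6.78. Fed LIV arrays read 6.29, 5.76, 6.31 and 6.03 and fasted ones 6.79, 6.50, 7.03, 7.06 and 6.67. In SM fed values of 5.89, 5.32, 6.06, 5.82 and 5.76 met fasted values of 6.11, 6.14, 6.41 and 6.56. On the 28 arrays the groups did not overlap in any tissue, but in WAT and SM the nearest fed and fasted arrays were only 0.086 and 0.054 apart.

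The change of Per2 was 0.77 in WAT (SE 0.176, 1.71-fold, adjusted p = 0.00125, limma), 0.71 in LIV (SE 0.186, 1.64-fold, adjusted p = 0.00951) and 0.54 in SM (SE 0.186, 1.45-fold, adjusted p = 0.0368). The intervals of the differences between tissues all spanned 0, for instance −0.467 to 0.586 for WAT minus LIV. The SM result was close to the threshold: with all 30 arrays the change was 0.467 and was no longer called (adjusted p = 0.0607), and the groups overlapped by 0.113 (fasted SM 5 read 5.95). In LIV the call was lost when fed LIV 2 alone was left out (0.6, adjusted p = 0.056). It held without all 3 fed arrays numbered 2, fed LIV 2 among them (0.6, adjusted p = 0.0051).

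Per3, the period gene that mice can lack with little effect on their rhythm, had estimates of different sign in the 3 tissues. In WAT the fed arrays read 7.68, 7.06, 7.96, 7.92 and 7.56 and the fasted ones 7.27, 7.48, 7.86, 7.12 and 7.33, which overlap. In LIV the fed arrays read 5.66, 4.84, 5.08 and 5.93 and the fasted ones 5.73, 5.81, 6.42, 6.42 and 5.55, which overlap too. In SM the fed arrays read 7.40, 7.17, 7.55, 7.35 and 7.23 and all 4 fasted ones were lower, at 6.52, 6.80, 7.10 and 6.75.

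The differences of Per3 were −0.22 in WAT (adjusted p = 0.505, limma), 0.61 in LIV (SE 0.211, adjusted p = 0.0557) and −0.55 in SM (SE 0.211, adjusted p = 0.0645), none of them called. With all 30 arrays the SM difference was −0.62 and was called (adjusted p = 0.0262). The tissues differed in the change itself: SM minus LIV was −1.16 (SE 0.299, 2.23-fold, adjusted p = 0.00719) and WAT minus LIV −0.83 (SE 0.291, 1.78-fold, adjusted p = 0.0467). The second of these lost its call with all 30 arrays (−0.776, adjusted p = 0.0643) and with the pair named in the study left out (adjusted p = 0.0571). It was also lost with array weights (0.0766), without moderated variances (0.0729) and without the 3 fed arrays numbered 2 (0.0535). Most fits with 1 array left out did not call it either (adjusted p up to 0.138). SM minus LIV was called in every alternative run.

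**Figure D2:**
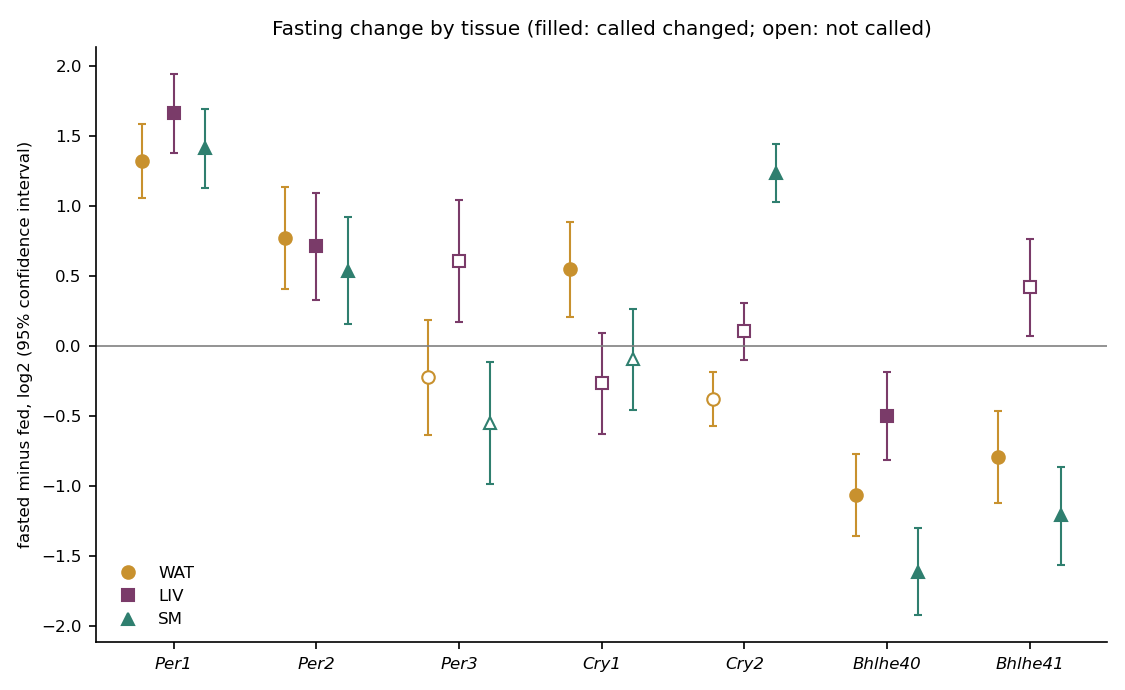
Fasted minus fed difference (log2, y) of the 7 repressor genes (x) in WAT (circles), LIV (squares) and SM (triangles), with 95% confidence intervals from the limma fit. Filled symbols were called changed. Per1 and Per2 lie above 0 in all tissues, Bhlhe40 below 0 in all, and Cry2 lies at 1.24 in SM and at −0.38 in WAT.

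The cryptochromes, whose proteins carry most of the repressive activity of the PER-CRY complex, differed from each other. Cry1 in WAT read 5.15, 5.51, 5.65, 5.15 and 5.44 in fed and 6.14, 5.60, 5.99, 5.92 and 5.99 in fasted mice, so only fasted WAT 2 fell within the fed range. It rose by 0.55 (SE 0.166, 1.46-fold, adjusted p = 0.0134, limma). The LIV and SM differences were −0.26 (adjusted p = 0.38) and −0.09 (adjusted p = 0.789), with means of 6.39 ± 0.25 (SD, n = 4) and 6.13 ± 0.51 (n = 5) in fed and fasted LIV and of 6.49 ± 0.16 (n = 5) and 6.40 ± 0.12 (n = 4) in SM. The Cry1 change in WAT exceeded that in LIV by 0.81 (adjusted p = 0.0182), which was no longer called with all 30 arrays (0.691, adjusted p = 0.0578). It was not shown to exceed that in SM (0.64, adjusted p = 0.0696).

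Cry2 was the member whose change differed between all 3 pairs of tissues. In SM the fed arrays read 7.89, 7.68, 7.72, 7.59 and 7.61 and the fasted ones 8.72, 8.92, 8.98 and 9.13, a rise of 1.24 (SE 0.1, 2.36-fold, adjusted p = 3.25e-10, limma). In WAT the fed arrays read 8.42, 8.25, 8.50, 8.34 and 8.64 and all fasted ones were lower, at 8.05, 8.09, 8.18, 8.06 and 7.90. That difference, −0.38 (SE 0.094, adjusted p = 0.00306), passed the test for p but lay just under the minimum of 1.3-fold and was not called. It was called when arrays were centred on their medians (−0.393) or loess-normalized within tissues (−0.403). In LIV the difference was 0.11 (interval −0.099 to 0.311, adjusted p = 0.575). The change in SM exceeded that in LIV by 1.13 (SE 0.141, adjusted p = 1.43e-06), the change in WAT was below that in SM by 1.61 (3.06-fold, adjusted p = 2.89e-09), and WAT minus LIV was −0.48 (adjusted p = 0.0137).

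Bhlhe40, an E-box repressor that is itself a target of the clock and of metabolic and hypoxic signals, fell in all 3 tissues. In SM the fed arrays read 8.64, 8.82, 8.78, 8.81 and 8.73 and the fasted ones 7.36, 7.11, 7.18 and 6.95. In WAT the fed arrays read 6.27, 5.90, 6.71, 6.05 and 5.96 and the fasted ones 5.05, 4.94, 4.87, 5.08 and 5.63. In LIV the fed arrays read 8.01, 7.34, 7.45 and 7.97 and the fasted ones 7.17, 7.12, 7.14, 7.19 and 7.36. The SM groups stood 1.28 apart at their nearest arrays, the WAT groups 0.271, and the LIV groups touched, with fasted LIV 5 above fed LIV 2.

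Bhlhe40 fell by 1.61 in SM (SE 0.152, 3.05-fold, adjusted p = 6.29e-09, limma), fell by 1.06 in WAT (SE 0.144, 2.09-fold, adjusted p = 1.79e-06) and fell by 0.498 in LIV (SE 0.152, 1.41-fold, adjusted p = 0.0279). The SM change was larger than the LIV change, by −1.11 (SE 0.215, adjusted p = 5e-04). WAT differed from neither LIV (−0.565, adjusted p = 0.0634) nor SM (0.545, adjusted p = 0.0761) at the threshold. The WAT and LIV difference was called with all 30 arrays (−0.582, adjusted p = 0.0456), with array weights (adjusted p = 0.0304), after median centring (adjusted p = 0.0391) and without dim probe sets (adjusted p = 0.0415). The LIV call was lost without fed LIV 1 (−0.394, adjusted p = 0.126) and without fed LIV 5 (−0.406, adjusted p = 0.105). Beside it, 4 of 6 macrophage markers were also lower in fasted LIV, with a mean over the 6 of 7.17 to 7.58 in fed and 6.59 to 7.08 in fasted livers, and their part in the LIV results was not tested.

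Bhlhe41, the paralog of Bhlhe40, fell in WAT and SM but not in LIV. In SM the fed arrays read 8.88, 9.12, 8.98, 9.21 and 9.27 and the fasted ones 8.03, 7.69, 8.08 and 7.73, a fall of 1.21 (SE 0.17, 2.31-fold, adjusted p = 4.22e-06, limma). The fasted SM array left out read lower still, at 7.10, and with all 30 arrays the difference was −1.37. In WAT the fed arrays read 5.78, 5.75, 6.08, 5.65 and 5.69 and the fasted ones 4.72, 4.84, 5.45, 4.81 and 5.19, a difference of −0.79 (SE 0.16, 1.73-fold, adjusted p = 0.000376). LIV values were dim, at 3.81, 3.73, 4.02 and 4.72 in fed and 4.28, 4.47, 4.33, 4.95 and 4.42 in fasted mice, all below the median level of 5.02 over all values, and the difference of 0.42 was not called (adjusted p = 0.109). Without fed LIV 5 it was 0.637 and was called (adjusted p = 0.00559). The change was lower than that of LIV by 1.21 in WAT (−1.21, adjusted p = 0.000413) and by 1.63 in SM (−1.63, adjusted p = 1.7e-05). At such dim values a fall in LIV could go unseen, which limits both comparisons.

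Changes between tissues were thus tested in 3 pairs for each member. WAT and LIV differed for 4 of the 7 (Per3, Cry1, Cry2, Bhlhe41; 13.5% of all probe sets), SM and LIV for 4 (Per3, Cry2, Bhlhe40, Bhlhe41; 12.8%), and WAT and SM for Cry2 only (12.8%). Being called higher in 1 tissue and lower in another was found for 1.03% of probe sets and, in the main fit, for no member. Cry2, called higher in SM, lay just under the minimum fold in WAT and was called lower there under some other settings. Of the markers, Plin1 and Lep, proteins of the fat droplet and of adipocyte signalling, were lower in fasted SM and Pnpla2 was higher. With the mean of the adipocyte markers as a covariate in a fit of SM alone, the SM changes were 1.41 for Per1, 0.53 for Per2, 1.26 for Cry2, −1.60 for Bhlhe40 and −1.26 for Bhlhe41, all called, and Per3, at −0.52, was called too (adjusted p = 0.0164, limma). Plin1, Lep and Pnpla2 are part of that mean, so the covariate also carries the response to fasting. This fit therefore cannot separate fat content from diet.

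Levels also differed between the tissues. Per1 stood highest in WAT, then SM, then LIV, with fed means of 8.30 ± 0.25 (SD, n = 5), 7.68 ± 0.18 (n = 5) and 6.66 ± 0.42 (n = 4), and fasted means of 9.63 ± 0.12 (n = 5), 9.09 ± 0.06 (n = 4) and 8.33 ± 0.10 (n = 5). Each neighbour in this order differed in both diets. No difference of Per2 between fed tissues was called, with means of 6.09 ± 0.50, 6.10 ± 0.26 and 5.77 ± 0.27 in WAT, LIV and SM. Without fed WAT 2, its level in fed WAT was above that in fed SM by 0.525 (adjusted p = 0.0033, limma), against 0.323 with that array. After fasting, SM (6.31 ± 0.22) was below both WAT (6.87 ± 0.13, adjusted p = 0.0116, limma) and LIV (6.81 ± 0.24, adjusted p = 0.0232). Per3 was lowest in LIV in both diets, by 2.26 against WAT and 1.96 against SM in fed mice and by 1.43 and 0.81 in fasted mice. Its fed WAT and SM levels, 7.64 ± 0.36 and 7.34 ± 0.15, did not differ at the threshold (adjusted p = 0.214).

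Fed Cry1 was lowest in WAT, at 5.38 ± 0.22 (SD, n = 5), 1.01 below LIV and 1.11 below SM on the log2 scale, and after fasting the difference from LIV was not called (−0.20, adjusted p = 0.312, limma). Without fasted LIV 4, where Cry1 read 5.35, it was −0.394 and was called (adjusted p = 0.0152). Fed Cry2 was highest in WAT, at 8.43 ± 0.15, against 7.58 ± 0.16 in LIV and 7.70 ± 0.12 in SM. After fasting the order was another, with SM at 8.94 ± 0.17 above WAT at 8.06 ± 0.10 (adjusted p = 1.02e-08) and LIV at 7.68 ± 0.20 (adjusted p = 7.51e-12). Bhlhe40 ran SM, LIV, WAT in fed mice (8.76 ± 0.08, 7.70 ± 0.34 and 6.18 ± 0.33), and in fasted mice SM and LIV met, at 7.15 ± 0.17 and 7.20 ± 0.10, a difference of −0.05 (interval −0.359 to 0.267). Bhlhe41 had the largest tissue difference of the members: fed SM, at 9.09 ± 0.16, was 9.86-fold above fed WAT (5.79 ± 0.17), and the log2 difference from LIV (fed mean 4.07 ± 0.45) was 5.02 in fed and 3.40 in fasted mice. No fold is given against LIV, where Bhlhe41 read 3.73 to 4.95 and the mean of the epididymis and testis markers, genes of other tissues, was 3.50 to 3.79.

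Between fed tissues, 6 of 7 members differed for WAT and LIV (39.4% of all probe sets), 5 for WAT and SM (41.7%) and 4 for SM and LIV (42.8%). In fasted mice the counts were 4 for WAT and LIV (39.1%), 7 for WAT and SM (42.5%) and 5 for SM and LIV (41.2%). Centring each array on its median moved fed WAT minus LIV by −0.127, fasted WAT minus LIV by −0.153 and fasted WAT minus SM by −0.15 for all probe sets, so smaller tissue differences depend on the scaling. Among the members this ended the call of 2 fasted differences, Per2 between WAT and SM (0.408, adjusted p = 0.054, limma) and Bhlhe41 between WAT and LIV (0.357, under the minimum fold).

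Mice of 1 group also differed from each other. The fed arrays numbered 2 held the lowest Per1, the lowest Per2 and the lowest Per3 of their group in WAT, in LIV and in SM alike. Their distances to the group mean were −0.39, −0.39 and −0.21 for Per1, −0.81, −0.34 and −0.45 for Per2 and −0.58, −0.53 and −0.17 for Per3 in WAT, LIV and SM. For the 4 other members no fed number was lowest in all 3 tissues, and number 4 could not be, because fed LIV 4 was left out. Of all 18781 genes, 1.09% had their lowest fed value on number 2 in each tissue, and 3.67% had it on the same number, whichever it was. Per2 also had its highest fed value on number 3 in each tissue (0.921% of genes). Per3 had its highest fasted value on number 3 in each tissue (1.56%). The labels do not say that a number marks the same mouse in the 3 tissues. The pattern of the fed arrays numbered 2 was noticed after the values had been seen.

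Without those 3 arrays, Per1 rose by 1.23, 1.53 and 1.36 and Per2 by 0.57, 0.60 and 0.43 in WAT, LIV and SM, all called. Per3 was then called in SM (−0.588, adjusted p = 0.0342, limma) but not in LIV (0.432) or WAT (−0.367). Cry2 was then called in WAT (−0.422, adjusted p = 0.00294, limma). On the 28 arrays, the SDs of Per1 and Per2 were larger in fed than in fasted groups in all 3 tissues, as were those of 9.15% of genes. With fed LIV 4 included, the SD of Per2 in LIV was 0.228 in fed and 0.237 in fasted mice. Fed Per2 in WAT had an SD of 0.50 and fasted Per2 one of 0.13. Taken by tissue, the fed SD was the larger for 6 of 7 members in WAT (44.1% of genes), 5 in LIV (42.9%) and 3 in SM (47.9%).

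**Figure D3:**
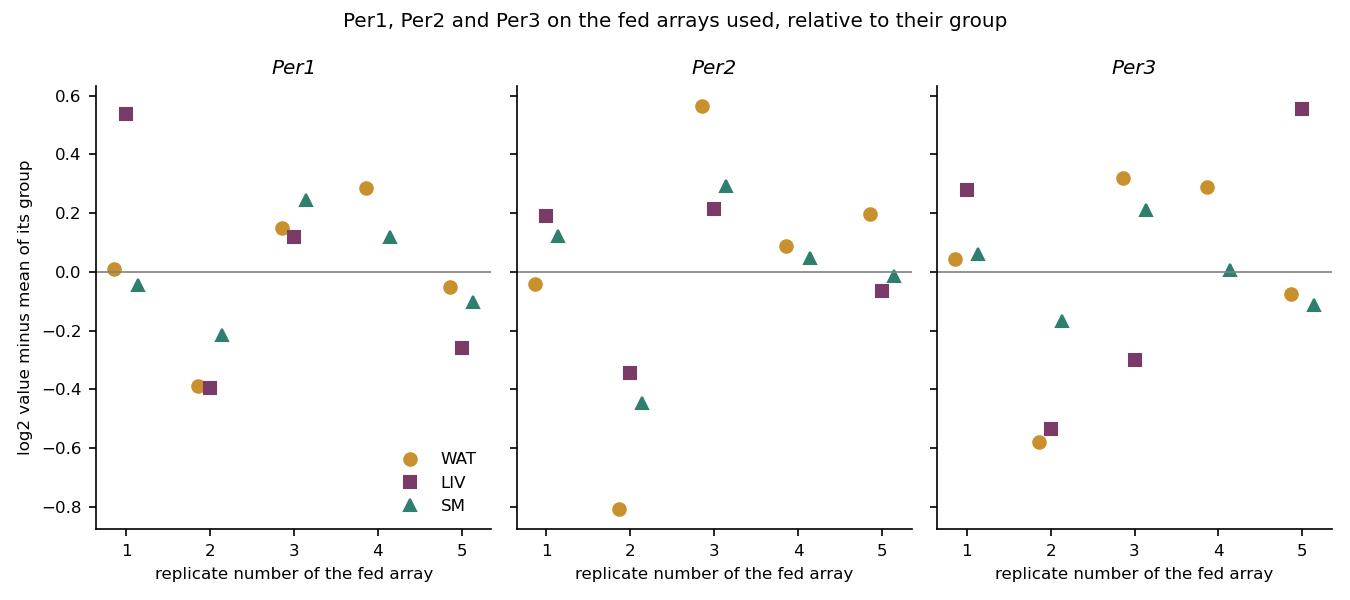
Deviation of each fed array from the mean of its group (log2, y) by replicate number (x) for Per1, Per2 and Per3, in WAT (circles), LIV (squares) and SM (triangles). The arrays numbered 2 are the lowest of their group in all 9 cases, and fed LIV 4, which was left out, is not drawn.

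The other parts of the clock were read from lists of genes. Among the 4 activators, which drive the Per and Cry promoters, Npas2 rose by 0.88 in WAT (adjusted p = 0.00365, limma) and fell by 1.28 in LIV (adjusted p = 0.000366), and Arntl rose by 0.41 in SM (adjusted p = 0.0119). The SM count of 1 was 0 to 1 with 1 array left out and 0 to 2 under the other settings. Clock and Arntl2 were not called in any tissue. Of the 3 measured genes of the second loop, which sets Arntl levels through ROR elements, Rora, an activator, rose in WAT (0.63) and SM (0.59), whereas Nr1d2 (Rev-erb beta) and Rorb were not called.

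Of the 3 measured PAR bZIP genes and their repressor, which act on D-boxes such as those printed for Per3, Tef and Hlf rose in LIV by 0.64 and 0.59. Hlf fell by 0.701 in SM (adjusted p = 0.000204, limma), where Nfil3, which competes at the D-box as a repressor, rose by 0.83 (adjusted p = 0.000204). None of the 3 was called in WAT. Tef was not called in SM (0.025). The Per3 differences listed above were 0.61 in LIV, −0.55 in SM and −0.22 in WAT, none of them called. A link between these factors and Per3 was not tested. Of 6 other clock genes, 3 were called higher in LIV: Ciart (Chrono), a further repressor of the activators, by 2.10 (adjusted p = 2.05e-10), Usp2, a deubiquitinase of clock proteins, by 2.07 (adjusted p = 9.28e-13), and Noct, a rhythmic NADP phosphatase, by 0.91. In WAT Ciart (0.41) and Noct (0.52) rose, and none of the 6 was called in SM. The WAT count of 2 was 1 with all 30 arrays and ranged from 0 to 4 under the other settings.

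**Figure D4:**
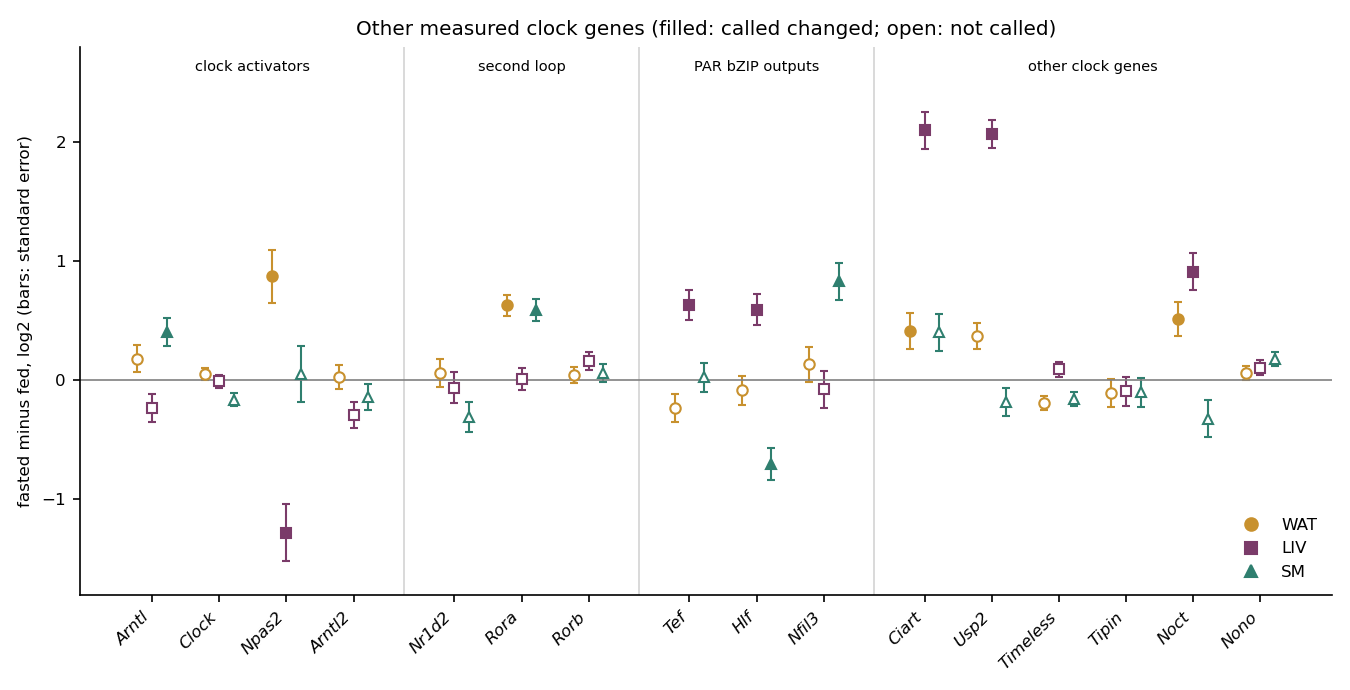
Fasted minus fed difference (log2, y) with its standard error for the other measured clock genes (x), by list, in WAT (circles), LIV (squares) and SM (triangles). Filled symbols were called changed. Ciart and Usp2 lie above 2 in LIV only, and Npas2 lies above 0 in WAT and below 0 in LIV.

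Enzymes that act on PER and CRY proteins or mark them for breakdown were read from a list of 12, of which 11 were measured. Among them, Csnk1d (casein kinase 1 delta) rose by 0.45 and Gsk3b by 0.73 in SM, Prkaa2, a catalytic subunit of AMPK, fell by 0.492 in WAT, and none was called in LIV. Csnk1d in WAT, at 0.32, passed the test for p (adjusted p = 1.12e-05, limma) but not the minimum fold. The WAT count of 1 ranged from 0 to 4 under the other settings. Medians over the list were −0.05, −0.06 and 0.09 in WAT, LIV and SM, where all probe sets had medians of 0.011, 0.026 and −0.004.

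Genes known to be induced by glucocorticoids, as Per1 and Per2 are, were read from a list of 10. Of these, 7 rose in WAT, 6 in LIV and 8 in SM, and none was called lower in any tissue, with median changes of 0.954, 1.18 and 0.936. Of all probe sets, 6.93%, 3.12% and 6.35% were called higher in WAT, LIV and SM, and 6.23%, 3.43% and 5.52% lower. Sgk1 in SM, at −0.368, passed the test for p (adjusted p = 0.00747, limma) but not the minimum fold. Ddit4, an inhibitor of mTORC1, rose by 2.97, 2.16 and 4.15 in WAT, LIV and SM, Cebpd by 1.75, 1.20 and 3.10, Fkbp5, a chaperone that dampens the receptor, by 1.76, 2.55 and 2.07, and Zbtb16 by 0.62, 1.97 and 1.01. Genes of the cAMP and Creb list did not move in 1 direction: 3 rose and 1 fell in WAT, 1 rose and 3 fell in LIV (3 called in all with all 30 arrays), and 2 rose and 2 fell in SM. Sik1 rose in WAT (0.87) and SM (0.94) and fell by 0.642 in LIV, Crem rose in WAT (0.56) and fell by 0.586 in LIV, Nr4a1 fell by 1.56 in LIV and fell by 0.778 in SM, and Ppargc1a rose in LIV (0.89) and fell by 0.663 in SM. Both lists were picked from general knowledge with earlier results of these data in view, and no list was tested as a set. The study describes Cebpd as responsive to cAMP too and Ddit4 as a p53 target, so the lists do not separate these inputs. Which input acts on Per1 and Per2 was not tested.

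The genes whose 3 fasting changes lay nearest to those of a member were found among 18774 genes, by the root mean square of the 3 differences. For Per1 these were Fmo2, a flavin monooxygenase, which changed by 1.33, 1.67 and 1.46 in WAT, LIV and SM (distance 0.028), Plin5, a droplet protein of oxidative tissues (0.243), and the metallothionein Mt1 (0.293). For Per2 they were Zfp612 (0.056), Dpep1 (0.068) and Herpud1 (0.072). Bhlhe40 had Iigp1 (0.122), Igfbp5 (0.246) and Slc25a1, the mitochondrial citrate carrier (0.247), and Bhlhe41 had Cntfr (0.128), Mir365-2 (0.176) and Grtp1 (0.216). The likeness covers 3 values per gene and is a description.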

How the data were processed

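Total RNA of WAT, LIV and SM of 5 fed and 5 fasted mice gave 30 arrays. The authors processed them in Partek by the default RMA method (background correction, then quantiles made equal between arrays, then a summary of each probe set's probes) and deposited the resulting log2 values, the only unit used. Quantile normalization hides a change in the total mRNA of a tissue. No probe-level detection call or version of these tools is given in the sources used here. Array values have no depth, and the 4 or 5 arrays per group limit the precision.

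Samples were grouped by their labels. The 7 members, the gene lists and the alternatives were chosen with earlier results of these data known. Group means of the 6 groups were fitted jointly to 28815 probe sets on 28 arrays in limma 3.58.1 (R 4.3.3), with fasting changes, their differences between tissues and tissue differences as contrasts. Adjusted p-values are Benjamini-Hochberg over all probe sets. Each gene is represented by the brightest of its probe sets that carry 1 symbol (21153 probe sets; 1867 had several symbols and 5795 were not listed). The fit was tested on simulated data. The study's text names fasted SM 1 as the second array to exclude, whereas the values set fasted SM 5 apart, so that pair and all 30 arrays were alternatives. Others were array weights, unmoderated variances, tissues fitted alone, the replicate number as a block or random effect, median centring, loess, no dim probe sets, mean over a gene's probe sets, other thresholds, and each array left out. The last 2 alternatives were chosen after seeing the data: the adipocyte marker covariate in SM and the fit without the 3 fed arrays numbered 2.

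The genes named are the members and up to 4 genes of each list, those called in most tissues. The 3 nearest genes of each member called in at least 2 tissues are named too. Clock, Arntl2, Nr1d2, Rorb, Sgk1, Plin1, Lep and Pnpla2 were named after their values were seen. Some genes of the lists are not reported here. No column of the value table was without a sample. Figures were drawn with Python 3.11.15 and matplotlib 3.10.9.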

Additional observations from a re-analysis of the deposited data

Results flagged for a closer look

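Of 21 tests of whether a member's fasting change differs between 2 tissues, 9 passed the threshold. For Per3 the difference was −0.833 (WAT minus LIV) and −1.156 (SM minus LIV), and for Cry1 it was 0.812 (WAT minus LIV). The Per3 difference of WAT minus LIV was close to the threshold and was not called in most fits with 1 array left out. Cry2 passed in all 3 pairs, at −0.481 (WAT minus LIV), −1.613 (WAT minus SM) and 1.132 (SM minus LIV). Bhlhe40 differed by −1.109 (SM minus LIV), and Bhlhe41 by −1.212 (WAT minus LIV) and −1.629 (SM minus LIV). Bhlhe41 was dim in LIV, where a fall could go unseen.

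A single array lay far from the rest of its group in 3 of the 42 groups examined, where chance gives about 1 in 20. Bhlhe40 read 5.634 on fasted WAT 5, with the other fasted WAT arrays at 4.875 to 5.081, and 7.362 on fasted LIV 5, with the others at 7.119 to 7.187. Bhlhe41 read 4.952 on fasted LIV 4, with the others at 4.279 to 4.469.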

How the results depend on the processing

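The 21 fasting changes of the members kept their direction under every alternative run. Of 322 values under other settings, 301 were on the same side of the threshold, 10 lost and 11 gained a call, and of 588 values with 1 array left out, 563 were the same, 10 lost and 15 gained one. Leaving out 1 array gave 5 to 6 members called in WAT, 2 to 4 in LIV and 4 to 6 in SM. The calls of Per1 in all tissues, Per2, Bhlhe40 and Bhlhe41 in WAT, and Cry2, Bhlhe40 and Bhlhe41 in SM held in all alternatives. Per2 in SM was not called with the pair of arrays named in the study left out (0.497, adjusted p = 0.0675, limma) or without moderated variances (adjusted p = 0.0579), nor without fed SM 2 (0.427), 4 (0.55) or 5 (0.536) or fasted SM 3 (0.503) or 4 (0.453). Bhlhe40 in LIV was also not called without fasted LIV 2 (−0.479) or 3 (−0.485), and Cry1 in WAT not at a minimum of 1.5-fold or a false discovery rate of 1%. Per3 gained a call in SM with each tissue fitted alone (adjusted p = 0.00583, limma) and without dim probe sets (adjusted p = 0.0431). In LIV it gained one without dim probe sets (adjusted p = 0.0375) and with the mean over a gene's probe sets (adjusted p = 0.0447). Some fits with 1 array left out also called it in SM (lowest adjusted p = 0.0471) or in LIV (lowest adjusted p = 0.0131). The count of members whose change differs between WAT and SM was 1 and became 3 with the study's pair left out, 3 with array weights and 2 without dim probe sets, and ranged from 1 to 3 with 1 array left out (3 without fed WAT 3, 2 without fasted WAT 2 or fasted LIV 4). Between WAT and LIV the count of 4 became 1 at a false discovery rate of 1%, 2 without the 3 fed arrays numbered 2, and 3 to 6 with 1 array left out. Fasted WAT against fasted SM went from 7 members to 4 at 1.5-fold, to 4 at 1%, and to 5 to 7 with 1 array left out. The uncalled differences that changed sign were Per2 in fasted WAT minus LIV (0.053; −0.099 after median centring, −0.024 to 0.116 with 1 array left out), the Per2 change in WAT minus LIV and Per2 in fed WAT minus LIV (−0.028 and 0.081 without the fed arrays numbered 2), the Cry1 change in SM minus LIV and Bhlhe40 in fasted SM minus LIV; the cause was not tested. With 1 array left out, the Per2 change in WAT minus LIV ranged from −0.142 to 0.201, Per2 in fed WAT minus LIV from −0.147 to 0.195, the Cry1 change in SM minus LIV from −0.023 to 0.286, and Bhlhe40 in fasted SM minus LIV from −0.116 to 0.019.

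With the replicate number as a block within each tissue (replicate block), Bhlhe40 in LIV was not called (−0.496, adjusted p = 0.0846, limma), and no other fasting change of a member gained or lost its call. The numbers were not taken to pair the samples. Of 13 same-numbered fed and fasted pairs, from different mice, 3 had deviations that correlated above 0.1 (r from −0.252 to 0.163). Of 26 same-numbered pairs of a diet in different tissues, 6 did (r from −0.122 to 0.177, median 0.031). With the replicate number as a random effect, the estimated common correlation was 0.027. A common value cannot exclude a shared deviation of single genes, such as the period genes in fed mice. The main fit took arrays of different tissues as independent, and the labels do not say which arrays share a mouse.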

Other observations

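Some of the other clock genes also had their extreme fed values on the arrays numbered 2, those with the lowest Per1, Per2 and Per3. Of 16 measured, 3 had their lowest fed value of each tissue there and 3 their highest, where 1.09% of all genes had their lowest and 0.948% their highest on number 2 in WAT, LIV and SM. The lowest were Ciart, at −0.27, −0.37 and −0.21 from the group mean in WAT, LIV and SM, Tef (−0.49, −0.34 and −0.12) and Nr1d2 (−0.53, −0.09 and −0.08). The highest were Npas2 (0.54, 0.61 and 0.30), Arntl (0.31, 0.20 and 0.21) and Nfil3 (0.28, 0.28 and 0.22). So an activator pair lay above its group means where the period genes lay below theirs. No other fed number was the extreme of any of the 16 in all tissues, and number 4 could not be, because fed LIV 4 was left out. Among the fasted arrays, where number 5 could not be an extreme in SM, Arntl and Npas2 were highest and Hlf lowest on those numbered 1. Noct was lowest on those numbered 2, and on those numbered 4 Arntl was lowest and Ciart highest. The genes named in this paragraph were picked after their values were seen. On fed WAT 2 the mean of the lymphocyte markers was 5.42, against 4.26 to 4.70 on the other fed WAT arrays, on fed LIV 2 it was 4.29 (others 4.24 to 4.33 among those used), and on fed SM 2 it was 4.13 (others 3.95 to 4.05), and its part in these values was not tested.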
